A study of Arabidopsis thaliana with 8 samples.

Results

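The DTX genes of Arabidopsis thaliana code for transporters of the MATE (multidrug and toxic compound extrusion) family. They were taken as every gene of the deposited expression table whose name is DTX followed by a number, which gave 53 of the 33199 genes listed. All 53 carry the MatE domain name in the table's family column, and 5 further genes with that domain name have another name or none. The table covers mRNA of Col-0 root tissue (4 libraries) and of Col-0 shoot tissue (4 libraries), wild type and with no treatment named, so the comparison is of one organ with the other in 1 accession. The growth protocol attached to the samples is written for Pistia stratiotes, so plant age, medium and harvest were not known here. Nothing in the labels states that libraries of 1 tissue are separate cultures, so p-values measure the spread between these libraries, which may be technical.

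MATE proteins sit in the plasma membrane, the vacuole membrane or the plastid envelope and move organic compounds, usually out of the cytosol and usually in exchange for protons or sodium ions. Plants have many more of them than animals do. Members characterised in Arabidopsis carry citrate, flavonoid precursors, hormones, defence compounds, herbicides and other foreign molecules, and a few conduct chloride.

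The libraries held 9857791 to 12460762 reads in root and 10044638 to 11662309 reads in shoot. Values are FPKM, reads scaled to gene length and to a library size set by the authors, so genes of different length can be set side by side. The authors' scaled size was 1.18 to 1.25 times the read total in root and 0.770 to 0.865 times in shoot, and 3 reads on a gene of 1 kb came to 0.192 to 0.375 FPKM. The tissue labels fit their markers: 9 leaf genes summed to 75.2 to 375 FPKM in root and 54565 to 72997 FPKM in shoot, and 5 endodermis genes summed to 306 to 506 FPKM in root and 1.77 to 4.08 FPKM in shoot. Root libraries 1 and 2 had larger leaf marker sums (375 and 267 FPKM) than root libraries 3 and 4 (75.2 and 94.3 FPKM). In tissue RNA of this kind, fewer cells of a type and less RNA per cell cannot be told apart.

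Most DTX genes that could be tested differed between the tissues, in both directions. Of the 53 members, 38 reached 0.5 FPKM in 4 or more of the 8 libraries and were tested with limma on log2(FPKM + 0.5), with Benjamini-Hochberg adjustment over all 20314 genes tested. At an adjusted p under 0.05, 15 members were higher in root, 21 members were higher in shoot, and the calls left out DTX23 and DTX45. The share called among all genes tested was 69.6%, with 37.6% higher in root and 32.0% higher in shoot. Differences of at least 2-fold were called for 27 members (12 for root, 15 for shoot), against 39.0% of all genes tested, with 20.9% higher in root and 18.1% higher in shoot. The median difference of the 38 members was -0.63 (root minus shoot, log2) and that of all genes tested was 0.07. Of these 38, 4 passed the filter through root libraries alone (DTX5, DTX20, DTX30 and DTX43) and 2 through shoot libraries alone (DTX3 and DTX14), so those 6 had to differ. Among the 30 members at or above 0.5 FPKM in every library, 11 had the higher level in root, 17 had it in shoot, and 2 were not called. The share called among all genes that meet this stricter condition was not computed, so these counts have no matching background.

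The balance of directions depended on the scaling. With library totals as the only scaling, calls were 17 for root and 15 for shoot, and root calls made up 53.1% of called members, against 41.7% with the authors' sizes. The same change moved the median of all genes tested to 0.58 and root calls among all called genes to 75.2%, against 54.0%. DTX12, DTX33, DTX42, DTX48, DTX49 and DTX50 were then not called, DTX12 also changing sign, and DTX23 and DTX45 were called higher in root. With median-of-ratios scaling these 8 genes had the same calls as with the authors' sizes. Summed over members, the level was 478 ± 34.6 FPKM in root and 510 ± 35.9 FPKM in shoot (SD, n = 4 each), with overlapping ranges. As reads per 1000000 of the library total, the members took 1222 ± 78.2 in root and 864 ± 75.1 in shoot (SD, n = 4 each), with ranges that did not overlap.

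**Figure D1:**
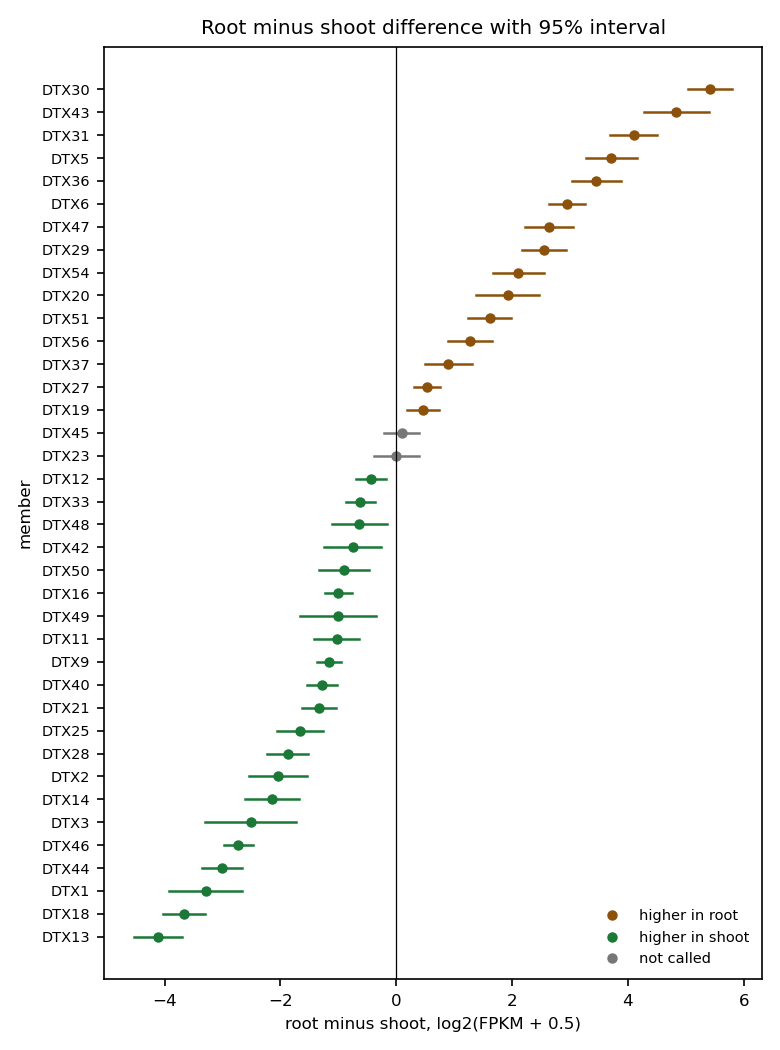
Root minus shoot difference on the log2(FPKM + 0.5) scale for each of the 38 tested members (points) with its 95% confidence interval from limma (lines), from 4 root and 4 shoot libraries. The differences run from 5.42 for DTX30 to -4.11 for DTX13, and the intervals of DTX45 and DTX23 include 0.

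In order of abundance, DTX27 was among the 5 leading members of both tissues. In root, DTX27 averaged 79.2 ± 9.22 FPKM and DTX36 averaged 66.5 ± 15.0 FPKM (SD, n = 4), and the ranges of these 2 genes overlapped. DTX30, DTX37 and DTX19 came next in root at 29.0, 28.2 and 23.8 FPKM, and the range of DTX30 lay below that of DTX36. Places 3 to 5 in root were not resolved. The range of DTX30 overlapped that of DTX37. Those of DTX31 and DTX43 reached 30.1 and 31.8 FPKM, above the lowest DTX37 value of 26.5 FPKM. The ranges of DTX19, DTX31, DTX33 and DTX43, with means of 22.4 to 23.8 FPKM, each overlapped the next. In shoot, DTX18 averaged 65.2 ± 14.0 FPKM and DTX27 averaged 54.5 ± 4.49 FPKM (SD, n = 4), again with overlapping ranges. DTX40, DTX46 and DTX33 followed in shoot at 43.4, 36.4 and 36.2 FPKM. The range of DTX40 overlapped that of DTX27, and the ranges of DTX46 and DTX33 overlapped. DTX13 and DTX1 reached 37.7 and 41.2 FPKM in shoot, so places 4 and 5 were not resolved there. The 5 most abundant members of a library took 48.5 ± 1.76% of the summed level in root and 47.0 ± 2.25% in shoot (SD, n = 4 each). Between 32 and 34 members reached 1 FPKM in a root library, and between 30 and 34 did so in a shoot library.

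**Figure D2:**
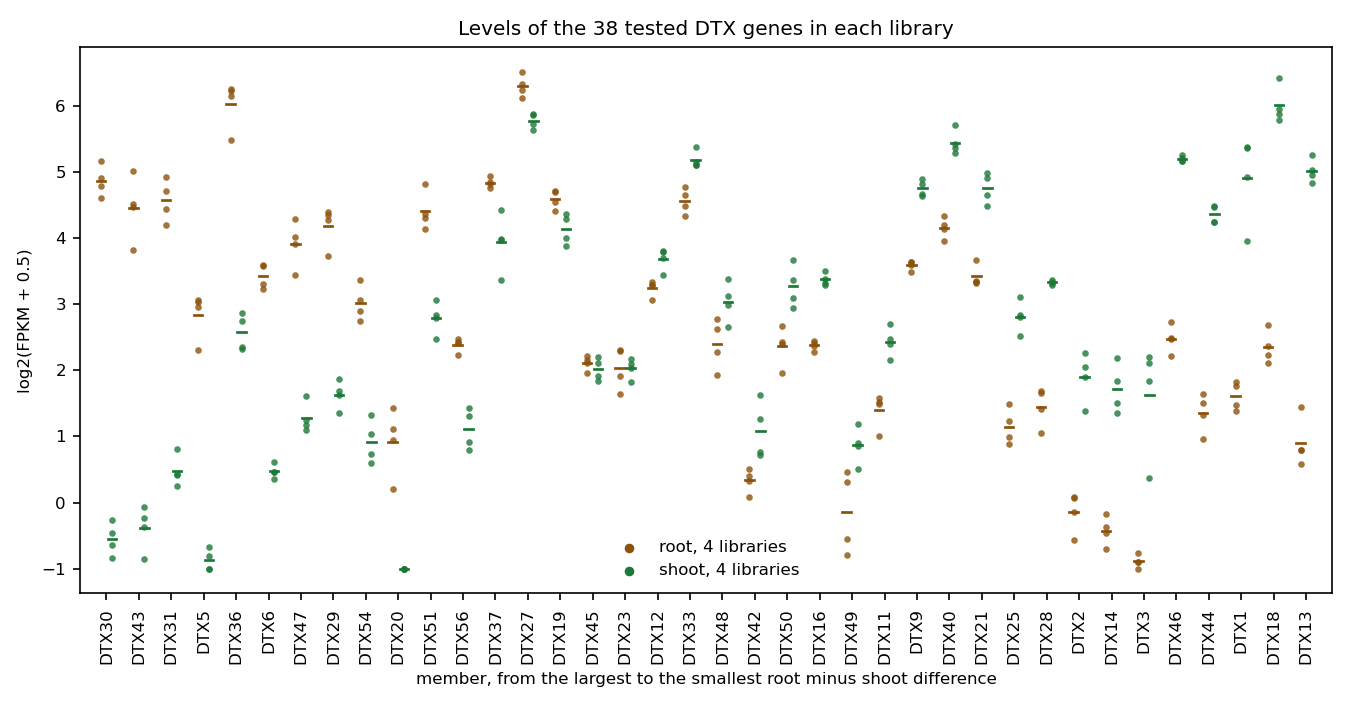
Level of each tested member in every library as log2(FPKM + 0.5), with root libraries left and shoot libraries right of each gene's mark; points are libraries and short lines are means of 4. DTX27 is high in both tissues (79.2 FPKM in root and 54.5 FPKM in shoot), and the root and shoot points of DTX20, at 0 reads in shoot, lie apart.

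Members known for metals and citrate split between the tissues. DTX43, also called FRD3, loads citrate into the xylem and keeps iron mobile on its way to the shoot. Its level (AT3G08040, chr3:2566196-2569700, minus strand, TAIR10) was 22.4, 21.6, 31.8 and 13.7 FPKM in root libraries 1 to 4, against 0.454, 0.274, 0.350 and 0.0529 FPKM in shoot libraries 1 to 4. Every root library stood far above every shoot library, and the lowest root value was in library 4. The endodermis markers had their largest sum there (506 FPKM), and the part of cell types in the DTX43 values was not tested. The difference was 4.84 ± 0.25 (log2, SE; adjusted p = 2.98e-08). DTX42, which releases citrate from roots exposed to aluminium, had 0.827, 0.928, 0.749 and 0.564 FPKM in root and 2.58, 1.14, 1.90 and 1.19 FPKM in shoot. The groups of DTX42 did not overlap, and it was higher in shoot by a small margin (-0.76 ± 0.22, adjusted p = 0.0113). DTX25, a vacuolar iron transporter, was at 1.48, 2.30, 1.84 and 1.34 FPKM in root and 6.5, 8.10, 6.63 and 5.22 FPKM in shoot, with no overlap and a difference of -1.67 ± 0.18 (adjusted p = 1.00e-05). DTX48, named BCD1 and tied to iron in leaves, was the 1 called member whose tissues overlapped, with 3.30 to 6.39 FPKM in root and 5.79 to 9.97 FPKM in shoot (-0.64 ± 0.21, adjusted p = 0.0206). Its call was lost without root library 1 (adjusted p = 0.0549), root library 3 (adjusted p = 0.0536) or shoot library 4 (adjusted p = 0.0593).

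The genes of aluminium-induced organic acid release that were listed beside DTX42 also went both ways. Of 4 that were tested, 1 was higher in root and 1 in shoot, with 2 not called, beside 69.6% called among all genes tested. ALMT1, the malate channel of the root, averaged 6.35 ± 0.896 FPKM in root and 0.216 ± 0.290 FPKM in shoot (SD, n = 4 each), a difference of 3.33 ± 0.25 (SE). ALS3, needed for aluminium tolerance, averaged 5.70 ± 1.41 FPKM in root and 16.0 ± 2.73 FPKM in shoot, a difference of -1.43 ± 0.19. The regulator STOP1 averaged 56.2 ± 6.59 FPKM in root and 55.8 ± 10.4 FPKM in shoot.

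The plastid pair DTX47 and DTX46 had opposite balances. DTX47 is EDS5, which carries the product of isochorismate synthase out of the plastid for salicylic acid synthesis. It stood at 10.4, 19.1, 15.8 and 14.6 FPKM in root, against 2.54, 1.88, 1.63 and 1.76 FPKM in shoot (AT4G39030, chr4:18185437-18189224, plus strand). Root was above shoot in every library (2.64 ± 0.19, adjusted p = 3.80e-07). DTX46, its closest relative among the members by sequence (70.3% identity over the aligned coding bases), stood at 6.14, 5.06, 5.11 and 4.16 FPKM in root and 36.8, 35.3, 38.0 and 35.6 FPKM in shoot. The 4 shoot values of DTX46 lay within a narrow band, and all were above the root values (-2.73 ± 0.11, adjusted p = 4.98e-09). The library kit did not mark strand, and both genes overlap a gene on the other strand. AT4G39040 shares 213 bases with DTX47 and ran the other way (8.31 to 9.67 FPKM in root and 73.3 to 90.2 FPKM in shoot), while AT2G21350 shares 585 bases with DTX46 at 1.94 to 2.79 FPKM in root and 1.03 to 2.57 FPKM in shoot.

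Of the other listed genes of salicylic acid synthesis, EPS1, which completes salicylic acid formation from its conjugate, was higher in root at 5.08 ± 0.819 FPKM, against 1.41 ± 0.371 FPKM in shoot (1.56 ± 0.18). ICS2, the minor isochorismate synthase, was higher in root by 0.73 ± 0.18. ICS1, the main isochorismate synthase, was higher in shoot, with 2.50 ± 0.0955 FPKM in root and 10.9 ± 3.15 FPKM in shoot (-1.89 ± 0.18). With EDS5 counted, 3 of the 4 tested genes of this list had more mRNA in root and 1 had more in shoot, and PBS3 was not tested. The share called among all genes tested was 69.6%.

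DTX50, an exporter of abscisic acid, was at 4.91, 5.89, 4.79 and 3.38 FPKM in root and 12.3, 8.05, 9.88 and 7.16 FPKM in shoot. The tissues did not overlap (-0.90 ± 0.20, adjusted p = 0.00181), but with library totals as the only scaling the adjusted p was 0.121. The 5 listed transporters of abscisic acid outside the family were all called, 3 higher in root and 2 higher in shoot. Among all genes tested, 69.6% were called, 37.6% higher in root and 32.0% higher in shoot. ABCG30, an importer, averaged 16.0 ± 2.94 FPKM in root and 1.07 ± 0.273 FPKM in shoot (3.40 ± 0.17), and ABCG31, an exporter, averaged 0.0631 ± 0.0369 FPKM in root and 1.41 ± 0.473 FPKM in shoot (-1.74 ± 0.19). DTX56, known from the guard cell response to carbon dioxide, stood at 4.82, 4.86, 5.03 and 4.22 FPKM in root, against 1.39, 1.24, 1.98 and 2.19 FPKM in shoot. It was higher in root (1.27 ± 0.17, adjusted p = 5.68e-05). The 4 guard cell markers summed to 0.481 to 0.965 FPKM in root and 32.3 to 42.8 FPKM in shoot, and the part of guard cells in the DTX56 values was not tested.

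The members known as chloride channels of the vacuole were abundant in both tissues. DTX33 was at 27.0, 24.8, 22.0 and 19.6 FPKM in root and 41.1, 34.2, 35.2 and 34.2 FPKM in shoot, with no overlap (-0.63 ± 0.11, adjusted p = 0.000530). With library totals alone the difference was -0.08 (adjusted p = 0.599). Its partner in that role is listed as ATDTX35, so the naming rule leaves it out, and it is also called FFT for its part in flavonoid levels of flowers. ATDTX35 had 36.9, 53.0, 42.4 and 44.1 FPKM in root and 32.9, 34.9, 38.8 and 32.7 FPKM in shoot, with overlapping ranges and a difference of 0.33 ± 0.11 (adjusted p = 0.0253). Its call was lost without root library 2 (adjusted p = 0.0682), shoot library 1 (adjusted p = 0.0610) or shoot library 4 (adjusted p = 0.0624). Of the 7 CLC channels and exchangers of internal membranes that were tested, root was higher for 3 and shoot for 2, and CLC-D and CLC-F were not called, a share of 71.4% called beside the 69.6% of all genes tested. CLC-A, the nitrate exchanger of the vacuole, averaged 67.9 ± 9.09 FPKM in root and 35.4 ± 6.29 FPKM in shoot (0.94 ± 0.14), and CLC-E, of the thylakoid, averaged 1.53 ± 0.530 FPKM in root and 10.2 ± 0.742 FPKM in shoot (-2.42 ± 0.18).

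Members known for removing toxic compounds and defence metabolites included the largest shoot level, that of DTX18. DTX18, which exports hydroxycinnamic acid amides active against Phytophthora, had 5.94, 4.2, 3.84 and 4.69 FPKM in root and 61.5, 85.8, 58.6 and 54.9 FPKM in shoot. All shoot values were far above all root values (-3.66 ± 0.16, adjusted p = 8.06e-09). DTX1, an efflux carrier of alkaloids, antibiotics and cadmium, was at 2.91, 3.06, 2.29 and 2.1 FPKM in root and 29.8, 41.2, 40.8 and 15.1 FPKM in shoot. Shoot library 4 was the lowest of its group, still above every root library (-3.29 ± 0.28, adjusted p = 1.60e-06). AT2G04039, which lies on the other strand and shares 297 bases with DTX1, ran from 0 to 0.450 FPKM in root and from 80.0 to 91.5 FPKM in shoot, and its part in the DTX1 reads was not tested. DTX19, named ALF5 for the lateral root defect of its mutant and needed for resistance to toxins in the medium, was at 25.7, 23.0, 20.8 and 25.6 FPKM in root and 20.2, 19.0, 14.3 and 15.5 FPKM in shoot. Its groups did not overlap and differed little (0.46 ± 0.13, adjusted p = 0.00785). The call of DTX19 was lost without root libraries 1 and 2 (0.42, adjusted p = 0.0571). DTX6, of which a gain-of-function allele gives resistance to the herbicide paraquat, had 9.45, 8.86, 11.4 and 11.5 FPKM in root, against 0.776, 1.04, 0.880 and 0.876 FPKM in shoot. The 2 groups of DTX6 lay well apart (2.95 ± 0.14, adjusted p = 1.41e-08).

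DTX41, known as TT12, loads proanthocyanidin precursors into the vacuole of the seed coat, a tissue that neither label names. It had 0 reads in the 4 root libraries and 2 reads in shoot, both in library 4, and was not tested. A gene on the other strand, AT3G59040, shares 92 bases with it and had 3.20 to 3.85 FPKM in root and 22.6 to 26.1 FPKM in shoot. The 7 markers of seed coat and flower summed to 8.63 to 11.9 FPKM in root and 9.60 to 13.2 FPKM in shoot, of which the seed mucilage gene MUM4 took 6.57 to 9.4 FPKM in root and 7.69 to 10.8 FPKM in shoot. The seed coat genes TT10 and BAN had 0.546 to 1.18 FPKM and 0 to 0.224 FPKM in root, and both were at 0 in every shoot library. Of 7 listed genes of flavonoid loading, 5 were too low to be tested, TT12 among them. AHA10, a proton pump that works with TT12 in the seed coat, was higher in root at 0.815 ± 0.249 FPKM, against 0.425 ± 0.114 FPKM in shoot (0.49 ± 0.19). TTG1, a regulator with roles in many tissues, was higher in shoot by a difference of -0.45 ± 0.09.

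The related members DTX29, DTX30 and DTX31 were higher in root by large margins. DTX30, a plasma membrane protein that affects auxin levels and root growth, was at 23.9, 35.6, 27.1 and 29.5 FPKM in root, against 0.328, 0.0594, 0.142 and 0.230 FPKM in shoot (AT5G38030, chr5:15171143-15175566, minus strand). Shoot held 14 reads of it in all, against 3237 in root, and its difference was the largest of the members (5.42 ± 0.17, adjusted p = 7.97e-10). DTX31, listed in RefSeq as root hair specific 2, was at 17.9, 30.1, 25.7 and 21.2 FPKM in root, against 0.836, 0.843, 1.24 and 0.690 FPKM in shoot (4.10 ± 0.18, adjusted p = 8.76e-09). Their relative DTX29 was at 12.8, 18.8, 20.6 and 19.8 FPKM in root, against 2.73, 3.14, 2.05 and 2.59 FPKM in shoot (2.55 ± 0.17). All 3 genes had their lowest root value in library 1. The 5 root hair markers summed to 156, 208, 195 and 260 FPKM in root libraries 1 to 4 and to 21.5 to 24.5 FPKM in shoot, with EXPA7, COBL9 and MRH6 at 0 in every shoot library, and the part of root hairs in these differences was not tested. Coding sequences of DTX29 and DTX30 were 88.6% identical, and DTX31 was 78.1% identical to DTX29 and 76.6% to DTX30.

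DTX51 has the name ADP1 for the altered shoot architecture and growth that its overexpression causes, and it is also named ADS1. It was at 17.2, 20.1, 27.8 and 19.2 FPKM in root and 5.06, 6.47, 7.88 and 6.66 FPKM in shoot. Root exceeded shoot in all libraries (1.61 ± 0.17, adjusted p = 7.39e-06). DTX54 was at 6.23, 7.91, 9.87 and 6.98 FPKM in root, against 1.01, 1.16, 1.56 and 2.00 FPKM in shoot, also without overlap (2.1 ± 0.20, adjusted p = 3.41e-06). Both belong to a group of 9 members, DTX48 to DTX56, whose coding sequence lies in 1 or 2 exons, while the other 44 have 6 to 14 coding exons. Of these 9, DTX51, DTX54 and DTX56 were higher in root, DTX48, DTX49 and DTX50 were higher in shoot, and the other 3 were not tested. DTX49 was low, at 0.878, 0.740, 0.0773 and 0.181 FPKM in root and 1.77, 1.37, 1.32 and 0.928 FPKM in shoot (-1.01 ± 0.29, adjusted p = 0.0105). Its 2 higher root values were in the root libraries with the larger leaf marker sums, and the part of leaf RNA in them was not tested.

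Several of the most abundant or most unequal members have no role named here. DTX36 was at 44.2, 76.4, 70.9 and 74.3 FPKM in root, against 6.25, 4.62, 4.49 and 6.84 FPKM in shoot (3.46 ± 0.19, adjusted p = 4.50e-08), with root library 1 well below the other root libraries. Its closest relative DTX37, 80.2% identical in coding sequence, was at 30.1, 27.9, 26.5 and 28.2 FPKM in root and 21.1, 15.2, 15.4 and 9.87 FPKM in shoot (0.90 ± 0.18, adjusted p = 0.00124). Both were higher in root without overlap, DTX36 by the wider margin. DTX27 was at 80.4, 91.2, 69.4 and 75.7 FPKM in root and 52.4, 58.7, 57.7 and 49.2 FPKM in shoot, a small difference with no overlap (0.53 ± 0.10, adjusted p = 0.000844). DTX40 was higher in shoot, with 17.2, 19.8, 17.9 and 15.0 FPKM in root and 40.7, 51.8, 42.7 and 38.5 FPKM in shoot (-1.29 ± 0.12, adjusted p = 2.42e-06). DTX44 had 2.34, 2.02, 1.45 and 2.63 FPKM in root and 18.6, 21.9, 18.5 and 21.8 FPKM in shoot, with shoot the higher in every library (-3.00 ± 0.16, adjusted p = 2.81e-08).

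Of the other called members, DTX14, DTX28 and DTX16 were higher in shoot. DTX14, whose protein structure is known from crystals, had 0.116 to 0.386 FPKM in root and 2.05 to 4.05 FPKM in shoot (-2.14 ± 0.21). DTX28 was at 1.57 to 2.71 FPKM in root and 9.32 to 9.85 FPKM in shoot (-1.88 ± 0.16). DTX16 was at 4.37 to 4.96 FPKM in root and 9.28 to 10.9 FPKM in shoot (-1.0 ± 0.11). For these 3 genes the tissues did not overlap. DTX16 shares 64 bases with TATB on the other strand, which had 9.75 to 12.5 FPKM in root and 97.5 to 113 FPKM in shoot. The 2 uncalled members were at similar levels: DTX23 averaged 3.69 ± 0.903 FPKM in root and 3.62 ± 0.406 FPKM in shoot, with a 95% interval of -0.39 to 0.40 for the difference, and DTX45 averaged 3.83 ± 0.310 FPKM in root and 3.57 ± 0.489 FPKM in shoot, with an interval of -0.21 to 0.40 (SD, n = 4 each).

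Low values limit the size of some of these differences. For DTX2, DTX3, DTX5, DTX14, DTX20, DTX30, DTX43 and DTX49 the fold moved by more than 1.5 times with the pseudocount or with limma-voom on the recovered reads, while each gene kept its sign and its call. From a pseudocount of 1 to limma-voom, the log2 difference ran from 1.27 to 5.35 for DTX20, from -1.81 to -5.60 for DTX3 and from 2.87 to 6.73 for DTX5. That of DTX30 ran from 4.65 to 7.22 and that of DTX43 from 4.14 to 6.37.

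Arrays, runs of MATE genes with gaps under 20 kb, hold 18 members, and those of an array did not always share a direction. On chromosome 1, DTX10, DTX11, DTX12 and DTX13 lie head to tail over 14.3 kb. DTX13 was at 1.23, 1.24, 1.00 and 2.23 FPKM in root and 30.4, 28.0, 32.4 and 37.7 FPKM in shoot, the largest difference higher in shoot on the log2(FPKM + 0.5) scale (-4.11 ± 0.18, adjusted p = 8.82e-09). With limma-voom it was -4.56, behind the -5.60 of DTX3. DTX12, 91.4% identical to DTX13 in coding sequence, was at 9.33, 9.30, 7.85 and 9.60 FPKM in root and 13.6, 10.4, 12.5 and 13.3 FPKM in shoot (-0.44 ± 0.12, adjusted p = 0.00584). DTX11 was at 1.5 to 2.49 FPKM in root and 3.95 to 6.04 FPKM in shoot (-1.03 ± 0.18). All 3 were higher in shoot, DTX12 losing that direction with library totals alone (0.09), and DTX10, 93.1% identical to DTX11, had 4 reads in root and 23 in shoot and was not tested. The non-coding gene AT1G15175, on the other strand, shares 245 bases with DTX12. AT1G15175 had 0.211 to 0.494 FPKM in root and 3.37 to 6.60 FPKM in shoot, and its part in the DTX12 reads was not tested. DTX9, at 10.7 to 12.0 FPKM in root and 24.5 to 29.3 FPKM in shoot (-1.17 ± 0.09), lies beside DTX8, which was not tested.

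The array on chromosome 2 spans 44.9 kb and holds 6 members in 2 blocks of opposite direction. DTX1, DTX3 and DTX2 were higher in shoot, and DTX5 and DTX6, at the far end, were higher in root, with DTX4 too low to test. DTX3 was at 0.0349, 0, 0.0384 and 0.0899 FPKM in root and 3.07, 3.81, 4.08 and 0.790 FPKM in shoot (-2.52 ± 0.36, adjusted p = 8.87e-05). Shoot library 4 was the lowest shoot library for DTX3, as it was for its neighbour DTX1. DTX2 had 0.402, 0.176, 0.553 and 0.561 FPKM in root and 2.11, 4.32, 3.24 and 3.67 FPKM in shoot (-2.04 ± 0.23, adjusted p = 1.32e-05), and DTX5 had 4.43, 7.84, 7.26 and 7.72 FPKM in root, against 0.128, 0.0692, 0 and 0 FPKM in shoot (3.71 ± 0.20, adjusted p = 3.45e-08). In reads, DTX5 had 648 in root and 3 in shoot, a ratio of levels of 140 with a 95% counting interval of 47.8 to 682. Within the array, DTX1, DTX2, DTX3 and DTX4 were 86.9% to 90.3% identical to each other in coding sequence and DTX5 and DTX6 were 92.1% identical, while DTX2 and DTX5, which stand side by side, were 74.4% identical.

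**Figure D3:**
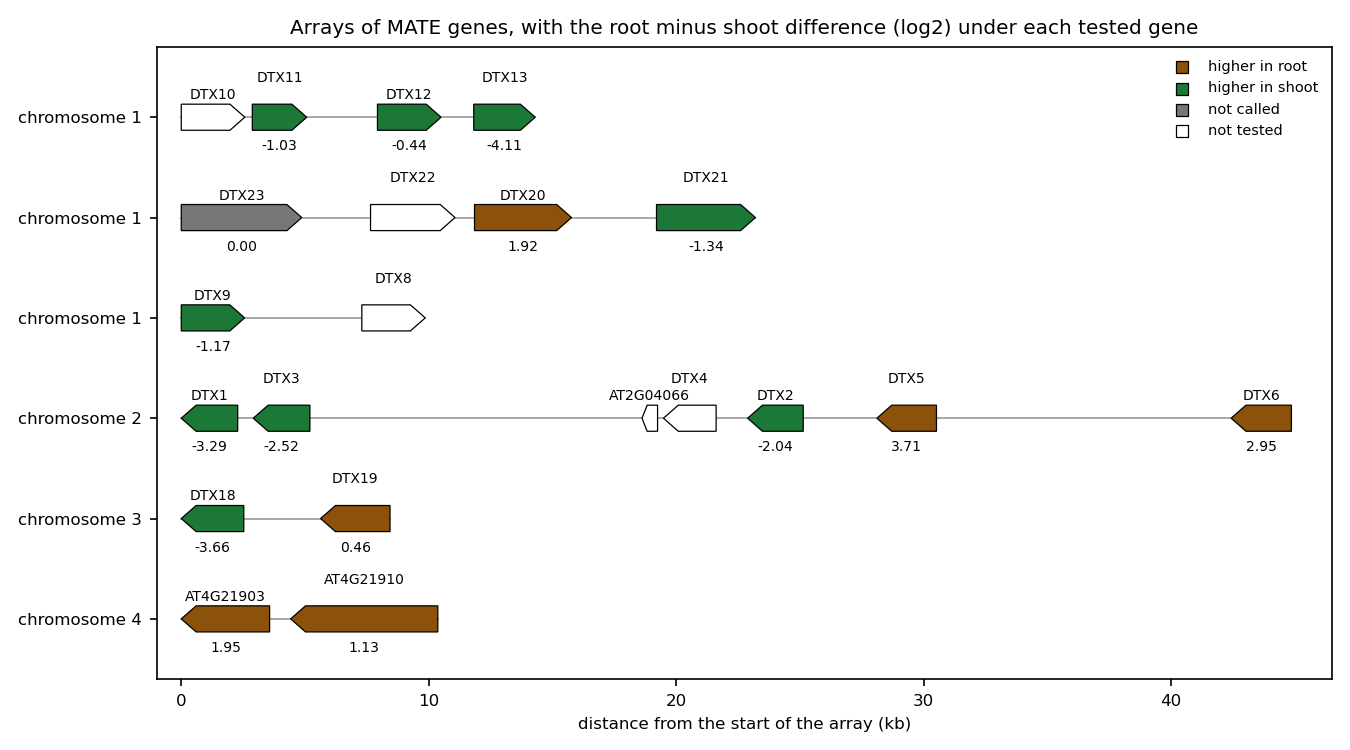
MATE genes in the 6 arrays, drawn to scale by distance from the start of each array in kb, with arrows pointing along transcription and coloured by the call; the number under a tested gene is its root minus shoot difference in log2(FPKM + 0.5). Differences of both signs stand in the same array on chromosome 1 (1.92 for DTX20 and -1.34 for DTX21), chromosome 2 (3.71 for DTX5 and -2.04 for DTX2) and chromosome 3 (0.46 for DTX19 and -3.66 for DTX18).

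Whether neighbours differ in their balance was tested on the log2 ratio of adjacent genes of the same family, over all 378 such pairs of tested genes in the table. Of these pairs, 77.5% had a ratio that differed between the tissues (limma, Benjamini-Hochberg adjusted p under 0.05), and 23.3% were pairs called in opposite directions. The family gave 3 such pairs with members. The log2 ratio of DTX2 to DTX5 averaged -2.98 ± 0.48 in root and 2.77 ± 0.49 in shoot (SD, n = 4 each), a difference of -5.75 ± 0.30 (SE, adjusted p = 1.68e-08). It was -8.34 with a pseudocount of 0.1 and -4.46 with a pseudocount of 1, DTX5 having 3 reads in shoot. For DTX18 to DTX19 it averaged -2.24 ± 0.15 in root and 1.88 ± 0.24 in shoot, a difference of -4.12 ± 0.16 (adjusted p = 2.50e-09). In both pairs the leading gene of one tissue was the lesser gene of the other. For DTX1 to DTX3 the difference was -0.78 ± 0.21 (adjusted p = 0.00519), but with a pseudocount of 0.1 it was 0.77 (adjusted p = 0.0717), so no direction is given for that pair. AT4G21903 and AT4G21910, a pair of MATE genes on chromosome 4, have no name in the deposited table, so the naming rule leaves them out. Both were higher in root (1.95 ± 0.22 and 1.13 ± 0.16).

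On chromosome 1, DTX23, DTX22, DTX20 and DTX21 lie in this order over 23.2 kb. DTX20 was at 0.650, 1.66, 1.43 and 2.19 FPKM in root and had no read in any shoot library (1.92 ± 0.24, adjusted p = 3.59e-05). By reads, 136 against 0, DTX20 was at least 29.5-fold higher in root, taking 3 reads over the shoot group as the floor and the root reads as exact. DTX21, 90.6% identical to DTX20, was at 12.2, 9.56, 9.57 and 9.76 FPKM in root and 31.1, 24.6, 29.6 and 21.9 FPKM in shoot (-1.34 ± 0.13, adjusted p = 4.99e-06). DTX22, 92.4% identical to DTX20, was under the filter but had 126 reads in root and 0 in shoot. It was at least 27.3-fold higher in root on the same terms. AT1G33102 lies between DTX20 and DTX21, so their ratio was not among the pairs tested. The 2 genes without shoot reads stand between DTX23, not called, and DTX21, higher in shoot.

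When each member was set against its closest relative in coding sequence, both were called for 26 members, and the direction was the same for 15 and opposite for 11. Genes that are each other's closest relative, such as DTX18 and DTX19, enter from both sides, so these 26 are not independent. Some closest relatives were remote. DTX54 and DTX47, called in the same direction, were 62.0% identical over 83.3% of the longer sequence. DTX56 and DTX42, called in opposite directions, were 62.7% identical over 83.4%. Of all pairs of members with at least 75% coding identity over at least 90% of their length, a limit set after the data were seen, 14 had both genes called, and 11 of these shared a direction. Pairs within the trios DTX1, DTX2 and DTX3, DTX11, DTX12 and DTX13, and DTX29, DTX30 and DTX31 make up 9 of the 11, so the pairs are not independent of each other. No share over other gene families was computed beside these counts. The 3 that did not share a direction were DTX20 with DTX21, DTX18 with DTX19 (88.3% identical) and DTX27 with DTX28 (75.3% identical). DTX42 with DTX43 (65.7%) and DTX46 with DTX47 (70.3%) were opposite at lower identity. Reads of 150 bases could be shared exactly by few members. Any such stretch in common with another MATE gene was found for 5: DTX2 with AT2G04066, DTX12 with DTX13 and DTX5 with DTX6. The shared part was largest for DTX2, at 11.3% of its 150-base stretches, against 1.29% for DTX13 and 1.63% for DTX5. How the authors' counting treated such reads is not known here.

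**Figure D4:**
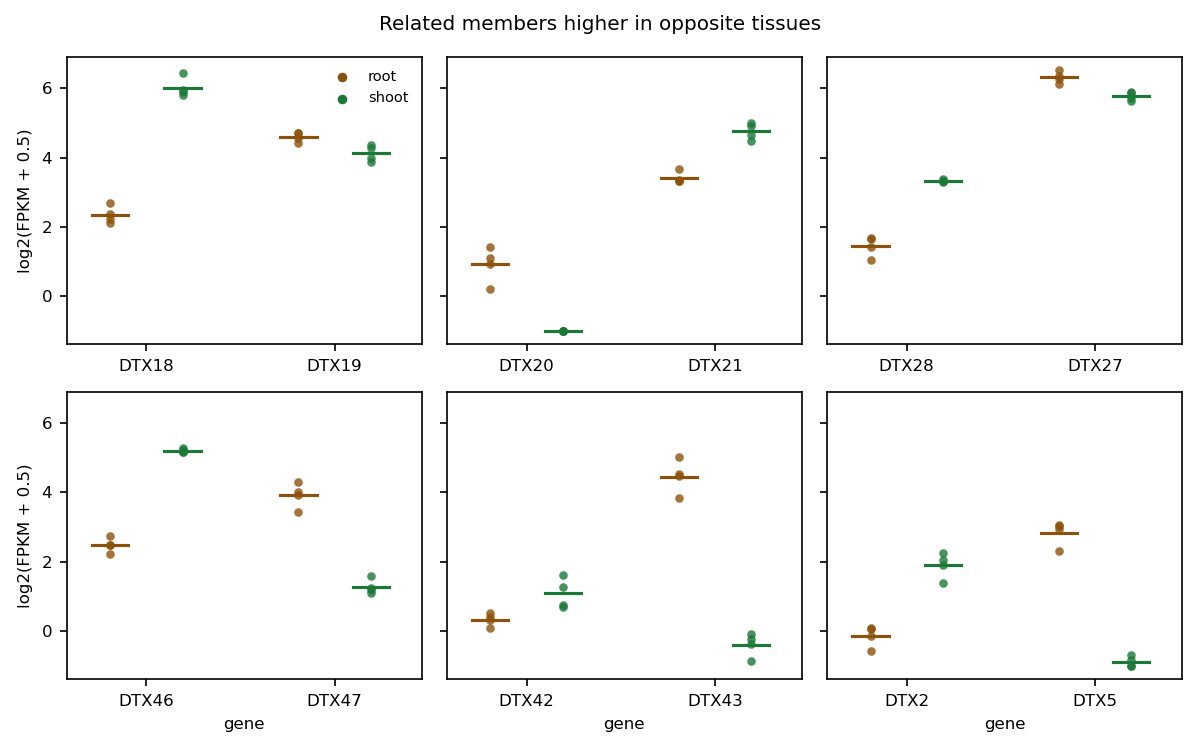
Level of both genes of 6 related pairs in every library as log2(FPKM + 0.5), root left of shoot for each gene; points are libraries and lines are means of 4. In each panel 1 gene is higher in root and the other in shoot, as for DTX19 (23.8 FPKM in root and 17.3 FPKM in shoot) and DTX18 (4.67 FPKM in root and 65.2 FPKM in shoot).

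The 250 bases before the start of each gene are shown for 3 pairs of members called in opposite directions. The genes of a pair stand next to each other among the MATE genes of an array. These windows are what lies directly upstream of array neighbours with different balances. They are from RefSeq assembly TAIR10.1, on the gene's own strand and 5′ to 3′, at chr2:1359404-1359653 (DTX2, minus strand), chr2:1364789-1365038 (DTX5, minus), chr3:8450800-8451049 (DTX18, minus), chr3:8456709-8456958 (DTX19, minus), chr1:11997250-11997499 (DTX20, plus) and chr1:12004604-12004853 (DTX21, plus). Capitals mark TATAAA, the core of the TATA box, and TTGAC, the core bound by WRKY factors, each on either strand (TTTATA and GTCAA when read on the other).
DTX2: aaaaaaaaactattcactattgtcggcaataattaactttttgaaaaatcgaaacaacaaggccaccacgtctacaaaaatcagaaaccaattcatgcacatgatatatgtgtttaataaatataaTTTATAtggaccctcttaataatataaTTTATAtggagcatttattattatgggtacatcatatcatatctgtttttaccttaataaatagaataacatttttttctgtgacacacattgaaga
DTX5: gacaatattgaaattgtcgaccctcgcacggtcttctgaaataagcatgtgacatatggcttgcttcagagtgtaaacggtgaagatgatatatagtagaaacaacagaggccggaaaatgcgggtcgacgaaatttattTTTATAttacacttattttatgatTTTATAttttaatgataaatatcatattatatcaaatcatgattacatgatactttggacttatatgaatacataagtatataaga
DTX18: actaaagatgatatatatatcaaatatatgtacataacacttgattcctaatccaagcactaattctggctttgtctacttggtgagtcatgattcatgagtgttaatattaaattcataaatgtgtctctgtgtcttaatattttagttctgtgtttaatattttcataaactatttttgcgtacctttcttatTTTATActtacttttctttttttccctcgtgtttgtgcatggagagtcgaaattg
DTX19: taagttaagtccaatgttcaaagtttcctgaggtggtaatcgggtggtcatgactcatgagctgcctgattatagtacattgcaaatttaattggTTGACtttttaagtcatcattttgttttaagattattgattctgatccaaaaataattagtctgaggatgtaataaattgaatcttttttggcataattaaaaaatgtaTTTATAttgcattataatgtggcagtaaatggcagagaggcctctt
DTX20: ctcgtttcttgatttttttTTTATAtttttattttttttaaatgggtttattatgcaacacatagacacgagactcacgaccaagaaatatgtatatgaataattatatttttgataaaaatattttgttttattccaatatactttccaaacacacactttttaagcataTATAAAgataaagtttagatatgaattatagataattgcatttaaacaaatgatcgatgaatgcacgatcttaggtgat
DTX21: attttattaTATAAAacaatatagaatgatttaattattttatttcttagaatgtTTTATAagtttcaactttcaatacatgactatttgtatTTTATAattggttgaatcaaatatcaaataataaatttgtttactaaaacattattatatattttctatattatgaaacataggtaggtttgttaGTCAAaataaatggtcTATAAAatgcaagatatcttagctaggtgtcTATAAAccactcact
All 6 windows hold TATAAA, DTX21 at 5 places and DTX18 at 1, and TTGAC is in those of DTX19 and DTX21. Searches for CACGTG, the G-box, and GATAAG, the I-box, on both strands found neither in these 6. Matches of TATAAA on opposite strands can overlap, and a window counts once however many it holds. Over the same 250 bases, TATAAA was present before 13 of the 15 members higher in root and 13 of the 21 higher in shoot, and before 60.4% of all 53 members, against 47.3% of 27443 protein-coding genes. TTGAC was present before 45.3% of members and 44.9% of all genes, CACGTG before 9.43% and 6.49%, and GATAAG before 5.66% and 12.3%. A match is a run of letters in the window and no evidence that a factor binds there.

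The other 15 members were under the filter and were not tested. DTX26, DTX32 and DTX55 had no read in any library, which at this depth does not show that they are silent. DTX55 shares 1916 bases with AT5G49138, and DTX32 shares 801 bases with RPL27AB, each on the other strand. Both of those overlapping genes were also at 0 FPKM in every library, and the part of the overlaps in these zeros was not tested. DTX4, DTX22, DTX52 and DTX53 had reads in root alone: 2, 126, 26 and 20. For DTX52 and DTX53, with 0 reads in shoot, the level was 5.63-fold and 4.33-fold higher in root against the floor of 3 reads over the shoot group. These folds take the root reads as exact, and counting error in so few reads could lower them. DTX41 had its 2 reads in shoot. DTX7, DTX8, DTX10, DTX15, DTX17, DTX24 and DTX34 had 4 to 29 reads in root and 1 to 30 reads in shoot, and none of them averaged more than 0.463 FPKM in either tissue. Counting these genes too, all root libraries were above all shoot libraries for 18 of the 53 members and below them for 21. No share over all listed genes was computed beside that count. For the 38 tested members alone, root was above in 15 and below in 20. Among the 20314 genes tested, 64.8% had tissues that did not overlap, 34.7% with root above and 30.1% with root below.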

How the data were processed

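Per the labels' protocols, RNA selected with poly-T beads was primed with random hexamers, strand was not marked, and pairs of 150-base reads were taken. The tools named in the submitters' processing notes are featureCounts 1.5.0-p3 and HISAT2 2.0.5, with the TAIR10 build. The authors deposited FPKM under a name that says counts: multiplied by gene length, the deposited FPKM values fall on a step of their library to within 1.37e-09 reads, which gives back the reads. How library sizes were scaled is not stated.

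The members and lists were chosen with earlier results of these data known. Root was compared with shoot by limma 3.58.1 in R 4.3.3 with a trend in the prior variance, two-sided, on log2(FPKM + 0.5), over all 20314 genes with at least 0.5 FPKM in at least 4 of 8 libraries. Benjamini-Hochberg adjusted p-values under 0.05 were called; ± after a log2 difference is the SE, and this scale understates changes of low genes. The design was written before the unit was known and named a count model for counts, which was not used. Per-library values were given for the 6 largest called differences in each direction, the 5 most abundant members per tissue, members of the opposite neighbouring pairs and members with a known role, 25 genes, and for others where a result turned on them. Bounds and counting intervals cover counting error only.

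The deposited gene coordinates equal those of RefSeq TAIR10.1 for all 53 members, so sequences were read from that assembly with Python 3.11.15, and coding sequences were aligned with Biopython 1.88. The limma steps were tested on simulated data. No 2 libraries of a tissue agreed within sampling noise (chi-square 6.94 to 21.0 per gene). Alternatives were other pseudocounts, filters and scalings, limma-voom, a block for the replicate number, and libraries left out.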

Additional observations from a re-analysis of the deposited data

Results flagged for a closer look

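In 6 members 1 library of a tissue stood apart from the other 3 by Dixon's test at the 95% level, out of 75 groups of 4 libraries tested; chance alone flags about 1 group in 20. DTX36 was at 44.2 FPKM in root library 1, against 70.9 to 76.4 FPKM in the other root libraries. DTX5 was low in the same library, at 4.43 FPKM against 7.26 to 7.84 FPKM. DTX21 was high there, at 12.2 FPKM against 9.56 to 9.76 FPKM. DTX12 was at 7.85 FPKM in root library 3, against 9.30 to 9.60 FPKM in the others. DTX11 was at 1.5 FPKM in root library 4, against 2.32 to 2.49 FPKM. DTX33 was at 41.1 FPKM in shoot library 1, against 34.2 to 35.2 FPKM in the other shoot libraries. None of these 6 genes lost its call when the library concerned was left out.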

How the results depend on the processing

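The counts of 15 members higher in root and 21 in shoot held with pseudocounts of 0.1 and 1, limma-voom and the replicate block. They also held with median-of-ratios scaling, whose sizes lay close to the authors' own. They were 18 and 22 without a filter, 14 and 19 with a filter of 1 FPKM, 17 and 15 with library totals alone, 14 and 21 without root libraries 1 and 2, and 15 with 20 to 21 when 1 library was left out. For all genes, totals alone gave 12142 called in root and 3997 in shoot. With totals alone DTX12 turned to 0.0897 (adjusted p = 0.550). DTX23, not called, was at -0.00995 with median of ratios, and ran from -0.0866 to 0.136 when 1 library was left out. The DTX1 to DTX3 ratio turned to 0.77 with a pseudocount of 0.1. The causes were not tested. The replicate numbers of the 2 tissues were not taken to pair, since deviations of same-numbered libraries correlated at only 0.0359, 0.0152, 0.0564 and 0.0710, although root libraries 1, 3 and 4 correlated best with their own number; root library 2 correlated better with shoot library 1 (0.0263). With the number as a block, member calls were 15 for root and 21 for shoot, and 7593 and 6511 of all genes. Depth limits the 14 members under 1 FPKM in both tissues.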
